A study of Mus musculus with 8 samples.

Results

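NF-kB is the family of inducible transcription factors through which cytokine and pathogen receptors switch on inflammatory and survival genes. The genes described here are 10 members of this system, chosen by name from the 21915 genes of a table of mRNA-seq counts in Hepa 1-6 cells: the subunit genes Nfkb1, Nfkb2, Rela and Relb, the inhibitor genes Nfkbia and Tnfaip3, and the target genes Cxcl1, Ccl2, Icam1 and Birc3. Ensembl identifiers were matched to symbols through the mm9 annotation, all 10 genes were found, and all 10 were among the 14142 genes that passed the filter on low counts and were tested.

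Hepa 1-6 is a mouse hepatoma line, and KAP1, the product of Trim28, is a co-repressor that KRAB zinc finger proteins bring to chromatin. Polyadenylated RNA was sequenced from 2 control samples, given the empty pLKO lentiviral vector, and from 2 Kap1 KD samples, given the same vector with a short hairpin RNA against Kap1. Both groups were selected with puromycin and collected 5 days after transduction, although one label field speaks of transfection with a plasmid, and the only hairpin used is a single one with the empty vector, not a non-targeting hairpin, as its control. Nothing states that the samples of a group were separate cultures, so p-values measure the spread between these samples, which may be technical. One sample of each group is numbered 2, the other was taken as replicate 1, and a pair is the 2 samples with the same number.

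The targeted gene, Trim28, was read 25400 and 28506 times under the empty vector against 4512 and 3692 times under the hairpin, a log2 change of −2.48 (SE 0.25) that was lower in both pairs, with an adjusted p of 0.9999 in edgeR and of 3.08e-11 in DESeq2. Total counts ranged from 41566888 to 53605115. Kap1 KD replicate 2 stood apart in RNA species that the NF-kB genes do not include: Lars2 was at 6905 CPM (counts scaled to the size of the library) there and at 239 to 286 in the other samples, and the loci of 7SK RNA summed to 43.0 CPM against 1.91 to 2.42. Of 8 hepatocyte markers 6 were above 1 CPM in every sample, with summed levels of 4425 to 5632 CPM, but Apoa1 and Ttr were at most 0.42 CPM throughout and Alb was at 1580 and 1036 CPM in control and at 975 and 441 CPM in Kap1 KD. Afp was at 697 and 750 CPM in control and 604 and 445 CPM in Kap1 KD, so that both Kap1 KD samples lay below both controls for Alb and Afp. The hepatocyte markers did not move together. Trf and Hnf4a were lower in Kap1 KD in both pairs, while Krt8 and Krt18 were higher in both. Krt8 was at 1057 and 1619 CPM in control and 1198 and 1749 CPM in Kap1 KD. Krt18 was at 1427 and 2011 CPM in control and 1556.5 and 2214.5 CPM in Kap1 KD. The 7 leukocyte markers summed to 23.0 and 39.7 CPM in control replicates 1 and 2. In Kap1 KD replicates 1 and 2 they summed to 21.5 and 35.3 CPM. Most of this was Cd14, while Cd68 was at 3.19 to 7.42 CPM and Csf1r at 0.89 to 3.22 CPM. Ptprc was at 0.07 to 0.17 CPM, Emr1 at 0.02 to 0.10, Itgam at 0.23 to 0.38 and Lyz2 at 0.35 to 0.71. Summed levels were 0.20 to 0.38 CPM for 5 endothelial markers and 1.60 to 2.42 CPM for the 5 listed stellate or fibroblast markers.

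In resting cells NF-kB dimers are held in the cytoplasm by IkB proteins. In the canonical pathway, IkB kinase phosphorylates IkBα, the product of Nfkbia, which is then degraded and frees dimers such as RelA with the processed Nfkb1 product. In the non-canonical pathway, NIK and IKKα drive processing of the Nfkb2 precursor, and RelB enters the nucleus with its product. Active dimers bind kB sites in promoters and enhancers, and Nfkbia, Tnfaip3, Nfkb2, Relb and Birc3 are themselves known targets, so that the pathway feeds back on itself. In liver, it is known for protecting hepatocytes from TNF-induced death and for the acute phase and chemokine response.

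RefSeq promoter windows of the GRCm38.p6 build, 250 bases before to 50 bases after an annotated start, were matched for 7 of the 10 genes, in 10 windows, and not for Nfkb1, Relb and Ccl2. They were searched on both strands for 2 kB-like motifs chosen after the windows had been read, the 10-letter GGGNNTTTCC and the 9-letter palindrome GGAANTTCC, which can overlap each other. Of all 32851 windows in the table, 1.63% held the first, 0.928% the second and 2.46% either. Either motif was present in a window of 5 genes, Nfkb2, Nfkbia, Tnfaip3, Cxcl1 and Icam1, and in none of the windows of Rela and Birc3. This count cannot be set against the share of all windows. The motifs were chosen with these windows known, and a gene can have several windows. The last 2 windows of Nfkb2 overlap and hold the same copy. The windows below are those of the gene with the largest fitted change, of one with almost none and of one whose change differed in sign between pairs, each with the motif letters in capitals, written 5′ to 3′ on the strand of the gene. They lie at chr10:19015361-19015660 (minus strand), chr12:55492598-55492897 (minus strand) and chr5:90890995-90891294 (plus strand).
Tnfaip3: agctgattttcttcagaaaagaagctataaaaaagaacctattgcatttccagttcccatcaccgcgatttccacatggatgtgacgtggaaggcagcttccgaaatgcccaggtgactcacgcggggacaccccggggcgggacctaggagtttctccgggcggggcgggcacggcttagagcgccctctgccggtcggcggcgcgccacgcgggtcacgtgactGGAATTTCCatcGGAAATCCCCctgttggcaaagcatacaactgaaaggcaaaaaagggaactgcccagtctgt
Nfkbia: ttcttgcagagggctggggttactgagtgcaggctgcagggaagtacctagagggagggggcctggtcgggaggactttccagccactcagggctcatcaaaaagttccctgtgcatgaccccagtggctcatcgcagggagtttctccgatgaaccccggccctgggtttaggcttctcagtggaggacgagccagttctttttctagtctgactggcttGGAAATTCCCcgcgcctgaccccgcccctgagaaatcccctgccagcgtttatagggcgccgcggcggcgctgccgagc
Cxcl1: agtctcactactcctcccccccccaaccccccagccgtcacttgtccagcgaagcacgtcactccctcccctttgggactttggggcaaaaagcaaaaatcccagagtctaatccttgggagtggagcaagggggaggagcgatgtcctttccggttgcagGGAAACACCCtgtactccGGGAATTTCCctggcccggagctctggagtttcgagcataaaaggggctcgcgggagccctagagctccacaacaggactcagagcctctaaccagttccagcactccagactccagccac

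In Tnfaip3 the palindrome began 24 bases and the 10-letter motif 12 bases before the annotated start, as neighbours. In Nfkbia both motifs shared the same letters from 29 bases before the start. Cxcl1 held the 10-letter motif at 89 and at 71 bases before the start, the nearer one overlapping the palindrome. A match is a string of letters and says nothing of whether a factor was bound in these cells.

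**Figure D1:**
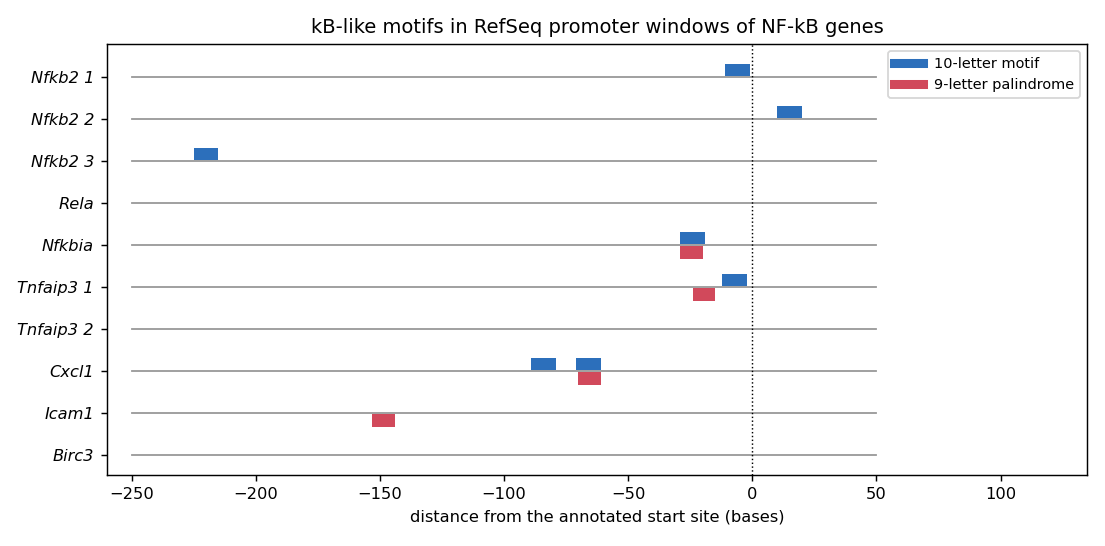
Positions of the 10-letter motif (blue) and the 9-letter palindrome (red) along each RefSeq promoter window of 7 NF-kB genes, with the distance from the annotated start site in bases on the x axis and 1 grey line per window. Nfkb2 holds the 10-letter motif in each of its 3 windows, of which the last 2 overlap and share 1 copy, while the windows of Rela, Birc3 and the second start of Tnfaip3 hold neither motif.

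All 10 genes had reads in every sample, over a wide span of levels. Compared per kilobase of exon, so that genes of different length can be set beside each other, the control level was highest for Nfkb2 at 108 ± 27.0 CPM per kb (SD, n = 2) and lowest for Cxcl1 at 1.97 ± 0.46. Rela followed at 46.4 ± 10.2, and then came Nfkbia at 24.8 ± 3.20, Nfkb1 at 21.7 ± 1.53 and Icam1 at 20.0 ± 8.92. Ccl2 stood at 13.3 ± 11.2 and Relb at 12.4 ± 3.65, while Tnfaip3 at 3.39 ± 0.725 and Birc3 at 2.84 ± 0.240 were the lowest but for Cxcl1. Per kilobase of the longest transcript, Birc3 was at 4.88 and Tnfaip3 at 3.95 CPM per kb, so that the order of these genes turned, as did that of Nfkb1 (25.3) with Nfkbia (24.8) and of Relb (14.8) with Ccl2 (13.9). Among all tested genes, the control level of Nfkb2 lay at percentile 95.5, that of Tnfaip3 at 39.9 and that of Cxcl1 at 31.4. The control samples of Nfkb2 did not overlap those of Rela, nor those of Rela with Nfkbia, of Relb with Tnfaip3, or of Birc3 with Cxcl1; the other neighbours in this order overlapped in their 2 control values. The transcript of the non-canonical precursor was thus the most abundant of the 4 subunits per length, and that of its partner Relb the least.

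**Figure D2:**
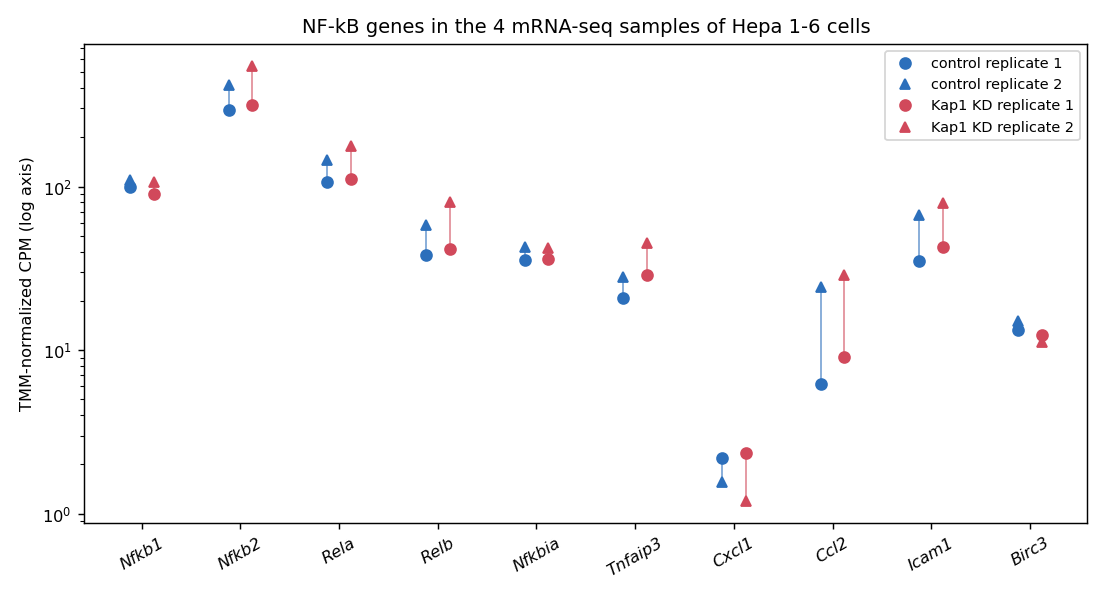
TMM-normalized CPM (log axis) of the 10 NF-kB genes in each sample, with circles for replicate 1 and triangles for replicate 2, blue for control and red for Kap1 KD, and a line joining the 2 samples of a group. Within either group the replicates of Ccl2 lie over 3-fold apart, while those of Nfkb1, Nfkbia and Birc3 lie close together.

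Between Kap1 KD and control, the fitted log2 changes of the NF-kB genes ran from −0.27 for Birc3 to 0.60 for Tnfaip3. Of the 10 genes, 6 were higher in Kap1 KD in both pairs, 2 were lower in both and 2 differed in sign, beside 32.8%, 38.1% and the remainder of all tested genes. The median fitted log2 change of the members was 0.22, against −0.02 over all tested genes. In 1 member, Tnfaip3, both Kap1 KD samples lay above both controls, which 9.69% of all tested genes also did. In 1 member, Birc3, both lay below, as in 10.6% of all tested genes. The groups of the other 8 overlapped. In bulk RNA, fewer cells with a transcript and less of it per cell cannot be told apart.

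No member passed the test between Kap1 KD and control. The threshold was a 1.5-fold change with a Benjamini-Hochberg adjusted p under 0.05 over all tested genes in edgeR's quasi-likelihood test, and it was passed by 0.0% of all genes, so that the absence of calls among the 10 is the same as in the background. At an unadjusted p under 0.05 there were 0 members and 185 of all tested genes, and DESeq2 without a block called 0 members and 3 genes in all. The adjusted p was 0.9999 for every member. With 2 samples against 2, an exact permutation test cannot go below p = 0.33. Values, intervals and the change per pair are therefore given as measurements; a log2 change per pair is on the scale of log2(CPM + 0.1), which understates changes of low genes.

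**Figure D3:**
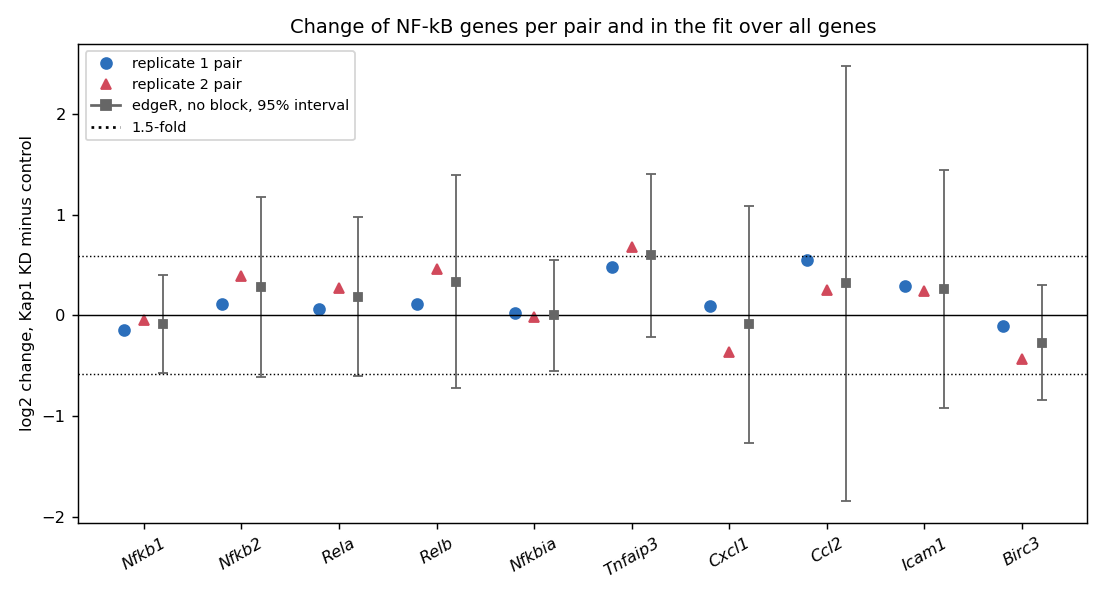
Log2 change of each NF-kB gene, Kap1 KD minus control, in the replicate 1 pair (blue circles) and the replicate 2 pair (red triangles), beside the edgeR estimate without a replicate block and its 95% interval (grey); dotted lines mark 1.5-fold. All 10 intervals include 0, and the interval is widest for Ccl2, from −1.84 to 2.48.

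Among the subunits, Nfkb2 (ENSMUSG00000025225, chromosome 19 of mm9, 46379227 to 46386580, plus strand), which encodes the non-canonical precursor, was at 292 and 418 CPM in control replicates 1 and 2 and at 316 and 547 CPM in Kap1 KD replicates 1 and 2. Kap1 KD replicate 1 lay between the controls and only replicate 2 above both. The change was 0.11 in the first pair and 0.39 in the second, and the fit gave 0.28 (SE 0.34, 95% interval −0.61 to 1.17). The annotated exons of Nfkb2 overlap those of Psd on the opposite strand, and whether counting used strand is not given in the sources used here. How reads in the shared stretch were counted, or whether they were left out, is therefore not known.

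Relb (ENSMUSG00000002983, chromosome 7, 20191566 to 20214787, minus strand), the partner of the processed Nfkb2 product, showed a like order of samples. It was at 38.4 and 58.5 CPM in control and at 41.5 and 80.6 CPM in Kap1 KD, so the groups overlapped. Its changes were 0.11 and 0.46, with a fitted change of 0.34 (SE 0.40, −0.72 to 1.39).

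Rela (ENSMUSG00000024927, chromosome 19, 5637483 to 5648130, plus strand) encodes the main transactivating subunit of the canonical dimer. Its level was 107 and 146 CPM in control and 111 and 176 CPM in Kap1 KD, again with the first Kap1 KD sample between the controls. The changes were 0.06 and 0.27, and the fitted one was 0.19 (SE 0.30, −0.61 to 0.98). Nfkb1 (ENSMUSG00000028163, chromosome 3, 135247619 to 135354511, minus strand), which encodes the DNA-binding partner in that dimer as a precursor, was at 99.0 and 109 CPM in control and 89.7 and 106 CPM in Kap1 KD. It was the only subunit lower in both pairs, by small amounts of −0.14 and −0.04. Its edgeR interval of −0.57 to 0.40 stayed within the 1.5-fold limit of 0.585 on either side. In DESeq2 without a block the change was −0.08 with a larger SE of 0.28, so this bound depends on the fit.

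Among the inhibitors, Tnfaip3 and Nfkbia differed from each other in their values. Tnfaip3 (ENSMUSG00000019850, chromosome 10, 18720716 to 18735463, minus strand) encodes a ubiquitin-editing enzyme that shuts off signalling upstream of IkB kinase, and it had the highest fitted change of the 10. It stood at 20.8 and 28.2 CPM in control and at 28.9 and 45.1 CPM in Kap1 KD. Both Kap1 KD samples were above both controls, but Kap1 KD replicate 1 was above control replicate 2 by a margin far smaller than the difference between the 2 controls. The ratio of Kap1 KD to control was 1.39 in the first pair and 1.60 in the second, and the fitted log2 change was 0.60 (SE 0.31, −0.21 to 1.41; unadjusted p = 0.116 in edgeR). Without Kap1 KD replicate 2 the fitted change was 0.25.

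Nfkbia (ENSMUSG00000021025, chromosome 12, 56590398 to 56593634, minus strand), the gene of IkBα and one of the earliest to respond to NF-kB, was at 35.5 and 42.6 CPM in control and at 36.1 and 42.1 CPM in Kap1 KD. The samples of the same number lay almost on top of each other, with changes of 0.02 and −0.02. The fitted change was 0.00 (SE 0.21), and the edgeR interval of −0.55 to 0.55 lay within the 1.5-fold limit on either side. As for Nfkb1, this bound depends on the fit, since DESeq2 without a block gave 0.01 with a larger SE of 0.30. The genes whose profile over the 4 samples was most like that of Nfkbia were Me2, Rnf25 and Eif2d, with root-mean-square differences of centred log2 CPM of 0.0016, 0.0083 and 0.0088.

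Among the target genes, Ccl2 (ENSMUSG00000035385, chromosome 11, 81849073 to 81850955, plus strand) encodes the chemokine that draws monocytes and was at 6.19 and 24.2 CPM in control and at 9.11 and 28.7 CPM in Kap1 KD. Replicate 2 exceeded replicate 1 by 3.90-fold in control and 3.15-fold in Kap1 KD, while Kap1 KD exceeded control by 1.47-fold in the first pair and 1.19-fold in the second. The fitted log2 change of 0.32 had the largest error of the 10 (SE 0.83).

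Icam1 (ENSMUSG00000037405, chromosome 9, 20820404 to 20833241, plus strand), the adhesion molecule that leukocyte integrins bind, followed the same order of samples at 34.9 and 66.9 CPM in control and 42.6 and 79.3 CPM in Kap1 KD. Its replicates differed by 1.92-fold in control and 1.86-fold in Kap1 KD, and its pairs by 1.22-fold and 1.18-fold. The fitted log2 change was 0.26 (SE 0.45, −0.92 to 1.44). A microRNA gene, Mir1900, lies in its annotated exons on the opposite strand, so its counts carry the same doubt about strand as those of Nfkb2.

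Cxcl1 (ENSMUSG00000029380, chromosome 5, 91320267 to 91322141, plus strand), a neutrophil chemokine, was the member with the fewest reads, 122 and 78 in control and 100 and 56 after the KD. It was the only member lower in replicate 2 of both groups, at 2.19 and 1.57 CPM in control and 2.35 and 1.20 CPM in Kap1 KD. The pairs differed in sign, 0.10 and −0.37, around a fitted change of −0.09 (SE 0.45, −1.26 to 1.08).

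Birc3 (ENSMUSG00000032000, chromosome 9, 7848699 to 7873186, minus strand) encodes an inhibitor of apoptosis that also ubiquitinates adaptors of TNF receptor signalling. It was at 13.4 and 15.1 CPM in control and at 12.4 and 11.1 CPM in Kap1 KD, so the groups did not overlap, with Kap1 KD lower. The changes were −0.11 and −0.43, and the fit gave −0.27 (SE 0.22, −0.84 to 0.30). Its fitted change was opposite in sign to that of Tnfaip3, another textbook target and brake on cell death. Both intervals ran from negative to positive, and a difference between these genes was not tested.

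The difference between replicates was larger than that between conditions for most of the members, as it was for most of all tested genes. In 8 of the 10, the gap between replicates 1 and 2 exceeded the mean change between Kap1 KD and control in both groups, the exceptions being Tnfaip3 and Birc3; the share over all tested genes was 67.8%. The direction of that gap was shared. Replicate 2 was the higher one in both groups in 8 of the 10 members, against 42.8% of all tested genes. The median gap of the members was 0.44 in control and 0.65 in Kap1 KD on the log2 scale, while that of all tested genes was within 0.01 of 0 in both. The summed leukocyte, hepatocyte and stellate or fibroblast markers also were higher in replicate 2 of both groups, while Alb was lower there in both. The part of these markers, and of the Lars2 and 7SK levels of Kap1 KD replicate 2, in this difference was not tested.

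**Figure D4:**
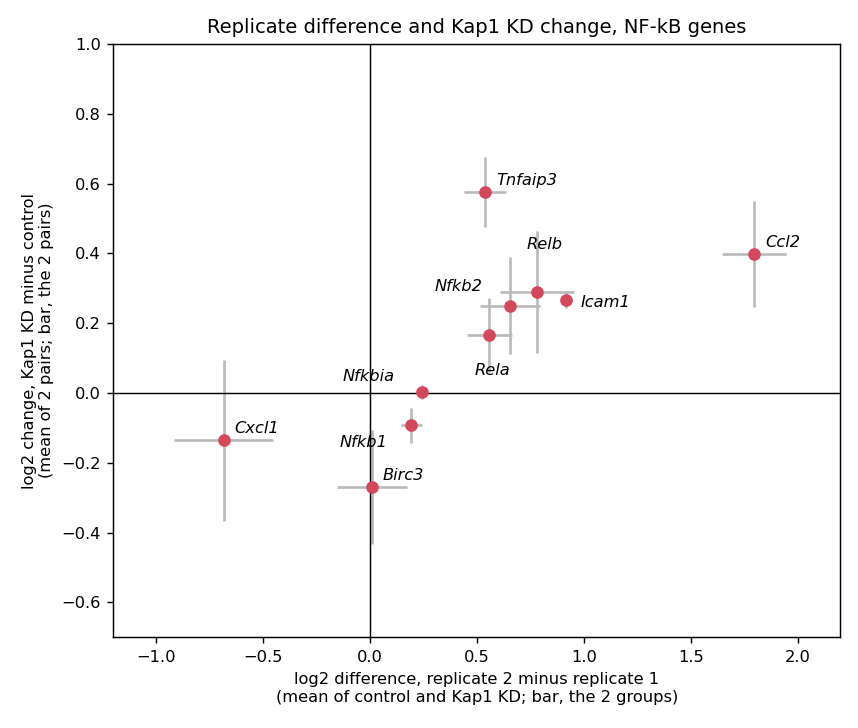
Mean log2 difference between replicates 2 and 1 (x axis) and mean log2 change between Kap1 KD and control (y axis) of the 10 NF-kB genes, with grey bars running between the values of the 2 groups and of the 2 pairs. Ccl2 lies furthest right, Tnfaip3 highest and Birc3 lowest, and 8 of the 10 have replicate 2 higher in both groups.

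A fit with the replicate number as a block takes this shared difference out, and called 2.06% of all tested genes higher and 2.4% lower; none of the 10 members was among them. Tnfaip3 missed the fold threshold narrowly, with a log2 change of 0.58 (SE 0.08, adjusted p = 1.0e-10, edgeR). In DESeq2 with the same block, which called 0.75% of genes higher, Tnfaip3 passed both thresholds at 0.59 (SE 0.12, adjusted p = 1.07e-04). By the adjusted p alone, with no fold threshold, the blocked edgeR fit held 10.1% of all tested genes higher and 11.5% lower, and 5 of the 10 members were higher: Nfkb2, Relb, Tnfaip3, Ccl2 and Icam1. In DESeq2 with the block, 3 of these did not pass the same adjusted p, with 0.0856 for Relb, 0.0977 for Ccl2 and 0.0724 for Icam1, and Nfkb2 lay at the threshold with 0.04997. The blocked edgeR fit took the spread from all genes together, with no weight on the spread between the pairs of a single gene. Its errors therefore leave out how far the pairs of a gene differed. The error of Relb was 0.08, while its changes in the pairs differed by an SD of 0.25. Nfkb1, Rela, Nfkbia, Cxcl1 and Birc3 did not pass it, with adjusted p = 0.421, 0.0736, 0.979, 0.764 and 0.0534 in edgeR.

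Around the members, 77 further genes of the pathway were listed from general knowledge, with earlier results of these data known. Of these, 63 could be tested. None passed in the fit without a block, and 2 of them, Ccl20 and Mmp9, had an unadjusted p under 0.05. Of the 63, 27 were higher in both pairs and 20 lower in both, which is 42.9% and 31.7% beside 32.8% and 38.1% of all tested genes. The median fitted log2 change was 0.02. In the fit with the block, 5 were called higher and 0 lower, against the 2.06% and 2.4% of all genes given above.

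Those 5 were the adaptor gene Traf1, the chemokine gene Ccl20, the colony-stimulating factor genes Csf1 and Csf2 and the matrix protease gene Mmp9. Mmp9 was counted 71 and 95 times in control and 151 and 443 times in Kap1 KD, with changes of 1.41 and 2.25 in the pairs and an interval of 0.54 to 3.52 in the fit without the block (unadjusted p = 0.0177, adjusted p = 0.9999, edgeR). Ccl20, which attracts lymphocytes and dendritic cells through CCR6, was counted 163 and 225 times in control and 287 and 603 times in Kap1 KD, with changes of 1.18 and 1.49. In both genes the Kap1 KD samples lay above the controls. Traf1, which binds TNF receptors together with TRAF2, was at 5.96 and 14.3 CPM in control and 11.7 and 25.5 CPM in Kap1 KD. Its groups overlapped, its pairs differed by 0.96 and 0.83, and its replicates stood in the same order as those of Ccl2. Csf1, the growth factor of macrophages, was at 81.9 and 148 CPM in control and 119 and 233 CPM in Kap1 KD, with changes of 0.53 and 0.65. Csf2 rested on 17 to 62 counts a sample, and DESeq2 with the block gave it no adjusted p.

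By layer of the pathway, each group held 2 to 14 tested genes, some with few counts, such as Csf2. Whether the layers differ was not tested. Over all tested genes, 32.8% were higher and 38.1% lower in both pairs. Of the 9 tested chemokine, adhesion and acute phase genes, 7 were higher in both pairs, with a median fitted change of 0.42. The exceptions were the neutrophil chemokine gene Cxcl2, at 0.01 and −0.51, and C3, the central complement protein, at −0.44 and −0.55. C3 was the only acute phase gene tested. Ccl5, among the 7, rested on 11 to 18 counts a sample. Saa1, Sele and Ccl7, at 0 to 4 counts a sample, did not pass the filter. Cxcl10, an interferon-inducible chemokine, had changes of 0.19 and 0.62. Of 7 deubiquitinases and other brakes, 5 were higher in both pairs, with a median of 0.13. The most abundant genes of that group were Otulin, Tnip1, whose product binds that of Tnfaip3, and Tax1bp1, which was the one lower in both pairs, at −0.11 and −0.17. Of 8 genes of kinases and kinase complexes, 1 was higher and 4 lower in both pairs, with a median of −0.09. The most abundant were Map3k7, Ikbkg and Tbk1.

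Of 14 adaptors and ubiquitin ligases, 4 were higher and 4 lower in both pairs, and the most abundant were Irak1, Tradd and Tab1. Of 10 receptors, 3 were higher and 5 lower. The most abundant receptor was Tnfrsf12a, the receptor of TWEAK, at 283 and 429 CPM per kb in control and 332 and 492 in Kap1 KD, followed by Ltbr, the lymphotoxin beta receptor, at 64.1 and 89.9 in control and by Tnfrsf1a, the main TNF receptor, at 46.7 and 49.98. The first and second of these signal through the non-canonical pathway. Tnfrsf12a, Ltbr and Tnfrsf1a had replicate 2 above replicate 1 in both groups. Among all 10 receptors, replicate 2 was higher in both groups in 5 and lower in both in 5.

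Of the ligands, Ltb and Il18 passed the filter on low counts, whereas Il1a and Il1b had 0 or 1 count a sample, Il6 1 to 7 and Lta 3 to 6. Of 6 further subunits and inhibitors, 2 were higher and 1 lower in both pairs, and the most abundant were Nfkbib, Nfkbie and Bcl3. Of 7 survival and stress genes, 4 were higher and 3 lower in both pairs; Bcl2l1, Irf1 and Sod2 were the most abundant, and Irf1 had changes of −0.21 and −0.33.

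**Figure D5:**
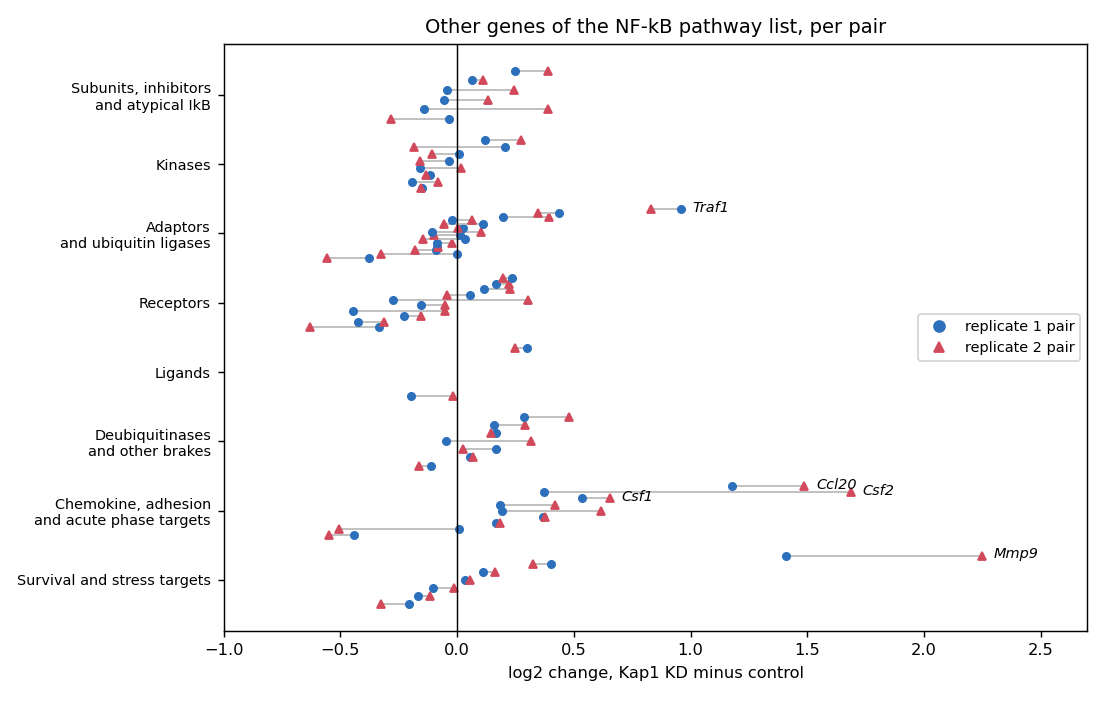
Log2 change, Kap1 KD minus control, of the 63 tested genes of the pathway list in the replicate 1 pair (blue circles) and the replicate 2 pair (red triangles), with 1 line per gene joining its pairs, by group. The 5 genes named in the plot are those called higher in the fit with a replicate block, and Mmp9 lies furthest right, at 1.41 and 2.25.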

How the data were processed

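The mRNA-seq table, as the authors deposited it, holds raw counts by Ensembl gene. The submitters' processing notes name TopHat2 2.0.11, HTSeq 0.6.1 and mm9, and the methods state that 1 alignment per read was kept; whether counting used strand is not given in the sources used here. Of 3 tables, the small RNA tables (4 samples, tRNA and snoRNA sequences) hold none of the genes and were not used.

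Symbols and coordinates came from the Ensembl annotation of mm9, which matched 21806 of 21915 identifiers; promoters came from RefSeq. Counts of 4 samples were tested in R 4.3.3 with edgeR 4.0.16 (filterByExpr, TMM, quasi-likelihood, Benjamini-Hochberg adjustment, no block), with DESeq2 1.42.0 and a replicate block as alternatives. A standard error is the size of the log2 change over the root of its F statistic. Counts with known changes were simulated with the spread of the blocked fit. Recovery and false calls were checked for the blocked edgeR fit only. The fit without a block was checked only for the sign of the changes. Levels per kb used the union of annotated exons. The depth was 41566888 to 53605115 counts; counting error weighs most on Cxcl1, the member with the fewest counts.

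The members and lists were chosen with earlier results of these data known. Genes named are the members, Trim28 and the 3 most abundant genes of each list group. Also named are list genes called in the main or blocked edgeR fit and the 3 profiles most like Nfkbia. Cxcl2, Ccl5, Ccl7, Saa1, Sele, Lars2, the low ligands and the 7SK loci were added after their values were seen. Cell type markers came from fixed lists. Tnf, Lcn2, Saa2 and Saa3 are not analysed here.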

Additional observations from a re-analysis of the deposited data

How the results depend on the processing

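Over the 10 members, the direction of the fitted change and the absence of a call held with DESeq2, with its size factors, without the filter on low counts and with the replicate block; the exceptions are Tnfaip3, called at 0.59 in DESeq2 with the block, and, by the blocked adjusted p alone (chosen after the data were seen), Nfkb2 at 0.25, Relb at 0.29, Tnfaip3 at 0.58, Ccl2 at 0.38 and Icam1 at 0.27, 5 genes called higher. Leaving out 1 sample leaves a group of 1, assumed to vary like the others and set against both replicates, so the gap between replicates enters the change by construction. Ranges were −0.21 to 0.028 for Nfkb1, −0.16 to 0.62 for Nfkb2, −0.18 to 0.48 for Rela, −0.21 to 0.74 for Relb, −0.13 to 0.16 for Nfkbia, 0.25 to 0.88 for Tnfaip3, −0.65 to 0.33 for Cxcl1, −0.73 to 1.63 for Ccl2, −0.25 to 0.83 for Icam1, −0.36 to −0.16 for Birc3 and −2.71 to −2.27 for Trim28. Without Kap1 KD replicate 2, 7 of the 10 changed sign, without control replicate 1, 5, and without control replicate 2 or Kap1 KD replicate 1, 1 each.

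Genes called in all were 0 in each direction; DESeq2 called 2 higher and 1 lower, the replicate block 292 and 339, DESeq2 with the block 106 and 121, the blocked adjusted p alone 1426 and 1626, and leaving out a sample 2 to 45 and 1 to 20. DESeq2 with the block called 1 member higher. Of the pathway list, the block called 5 higher, DESeq2 with the block 4, and the blocked adjusted p alone 16 higher and 4 lower. Trim28 passed at −2.47 in DESeq2, −2.48 with the block and −2.48 in DESeq2 with the block. Per longest transcript instead of exon union, the control level of Nfkb1 was 25.3 and that of Birc3 4.88 CPM per kb, above Tnfaip3. With total counts as the scale, the mean change per pair was −0.043 for Nfkbia and 0.22 for Icam1, and the median of all genes moved by less than 0.1.

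Deviations from the group mean correlated at 0.81 between same-numbered samples, over genes, which are no independent replicates; with 2 pairs and no label that a number marks a batch, the pairing remains a hint from the data. The blocked fit has 1 residual degree of freedom, and its spread is set by all genes together.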
